A study of Mus musculus with 8 samples.

Results

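The genes described here encode the nuclear-coded subunits of the mitochondrial respiratory chain and of ATP synthase, as far as their symbols name them. They were taken from the gene annotation of the arrays as every single-gene probe set whose symbol begins with Ndufa, Ndufb, Ndufc, Ndufs, Ndufv, Uqcr, Cox4, Cox5, Cox6, Cox7b, Cox7c or Atp5, together with Sdha, Sdhb, Sdhc and Sdhd. This gave 72 genes on 135 probe sets, of 13277 genes on 21454 single-gene probe sets in all. Each gene was represented by the probe set with the highest mean signal over the 8 arrays. By prefix, 36 genes belonged to complex I, 4 to complex II, 6 to complex III, 10 to complex IV and 16 to complex V, which is ATP synthase. The prefix is not a perfect guide to function: Ndufaf1 is an assembly factor of complex I, Atp5s (now Dmac2l) is not counted among the structural subunits of ATP synthase, and the protein of Ndufa4 is known to associate with complex IV. The identifier given for Ndufs5 belongs in RefSeq to the near-identical copy Ndufs5-ps, so its signal may be shared between the copies and is uncertain.

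Cells of the mouse line C3H10T1/2, an established line of embryonic fibroblast-like cells used as a model of multipotent mesenchymal cells, were compared after 3 days with 3.3 nM BMP7, a secreted bone morphogenetic protein, and after 3 days with vehicle. Both groups were cultures of the same line, treated at full confluency, with no genetic change named for either. Each group had 4 samples of total RNA, measured on 1 Affymetrix Mouse 430A array each. Separate cultures are not named for the numbered samples of either group. The p-values below therefore measure only how far these samples spread, and that spread may be technical.

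The respiratory chain passes electrons from NADH, through complex I, and from succinate, through complex II, to ubiquinone, and from there through complex III and cytochrome c to complex IV, where oxygen is reduced to water. Complexes I, III and IV pump protons out of the mitochondrial matrix, and complex V uses the returning protons to make ATP. All of complex II and most subunits of the other complexes are encoded in the nucleus. Undifferentiated mesenchymal cells are known to draw much of their energy from glycolysis, and to raise mitochondrial respiration in some, but not all, forms of differentiation.

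Vehicle array 3 stood apart from the other arrays on the quality measures. The Actb control probe sets gave a 3'/5' ratio, a measure of RNA integrity, that was 1.17, 1.18, 1.19 and 1.19 on the BMP7 arrays, against 1.21, 1.40, 6.55 and 1.17 on the vehicle arrays in replicate order, so that it was high on vehicle array 3. The Gapdh ratio was 0.75, 0.72, 0.80 and 0.77 on the BMP7 arrays, against 0.90, 1.35, 3.36 and 0.75 on the vehicle arrays. The spiked hybridisation controls averaged 11.72 to 11.96 on the log2 scale on the BMP7 arrays and 11.92 to 13.25 on the vehicle arrays, again highest on vehicle array 3. On each of these measures vehicle array 2 was the next highest, with hybridisation controls at 12.60. Medians of the complexes are therefore given with and without vehicle array 3, as are the genes whose values it moved most. These medians are also given without vehicle array 2. Of the known BMP target genes examined, Smad6, Hey1, Id1, Id3 and Smad7 rose in BMP7 cells and Id2 did not pass the test (limma, adjusted p = 0.143). All 12 mesenchymal markers examined were well measured, and 3 of them (Col3a1, Pdgfra and Lum) fell in BMP7 cells. Their summed signal was 243383 to 291064 on BMP7 arrays and 318770.0 to 463116 on vehicle arrays, and its part in the results below was not tested. The defining markers of epithelial cells (Cdh1) and of adipocytes (Adipoq, Fabp4) lay below the signal filter. So did 5 endothelial, 5 leukocyte and 6 skeletal muscle markers. Kdr (endothelial), Emr1 and Csf1r (leukocyte) and Ckm (skeletal muscle) lay above it, with group mean signals of 393 to 935, and none passed the test. In bulk RNA of this kind, fewer cells of a type and less RNA per cell cannot be told apart.

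No respiratory chain gene passed the test in either direction after 3 days of BMP7. Of the 72 genes, 70 had a mean log2 signal above the filter and were tested, and Cox4i2 and Cox6b2 were not. With limma and Benjamini-Hochberg adjustment over all 13576 tested probe sets, 0 of the 70 reached an adjusted p under 0.05, against 3.13% of all tested probe sets (1.63% upward and 1.50% downward). At an unadjusted p under 0.05 the count was 6 of 70, against 21.8% of all tested probe sets. Atp5g1 was the 1 with higher signals in BMP7 cells, and the 5 with lower ones included Ndufb11, Ndufa6, Uqcrb and Cox6a1.

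The differences of these genes were small beside those of the array as a whole. The log2 difference, BMP7 minus vehicle, had a median of -0.03 over the 70 tested members and 0.04 over all tested probe sets. With every array centred on its own median the 2 medians were -0.14 and -0.07. The difference was positive for 32 members and negative for 38, against 7264 and 6312 of all tested probe sets. Among the members it ranged from -0.58 for Ndufb11 to 0.84 for Atp5g1. No member differed by more than 2-fold, a size passed by 974 of the 13576 tested probe sets. For 58 of the 70 members (82.9%) the whole 95% confidence interval lay within a 2-fold difference either way, against 62.3% of all tested probe sets. The other 12 members had intervals that reach past a 2-fold difference in 1 direction. The signals of the groups did not overlap for 7 members, with 2 above (Atp5g1 and Uqcrc1) and 5 below (Ndufa1, Uqcrb, Cox6a1, Cox4i1 and Cox6c), against 15.4% of all tested probe sets (8.30% above and 7.10% below). The count was 3 after quantile normalization, and without single arrays it reached 17 (without vehicle array 4, where the share of all tested probe sets was 26.2%) and 12 (without BMP7 array 1, 22.0%).

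**Figure D1:**
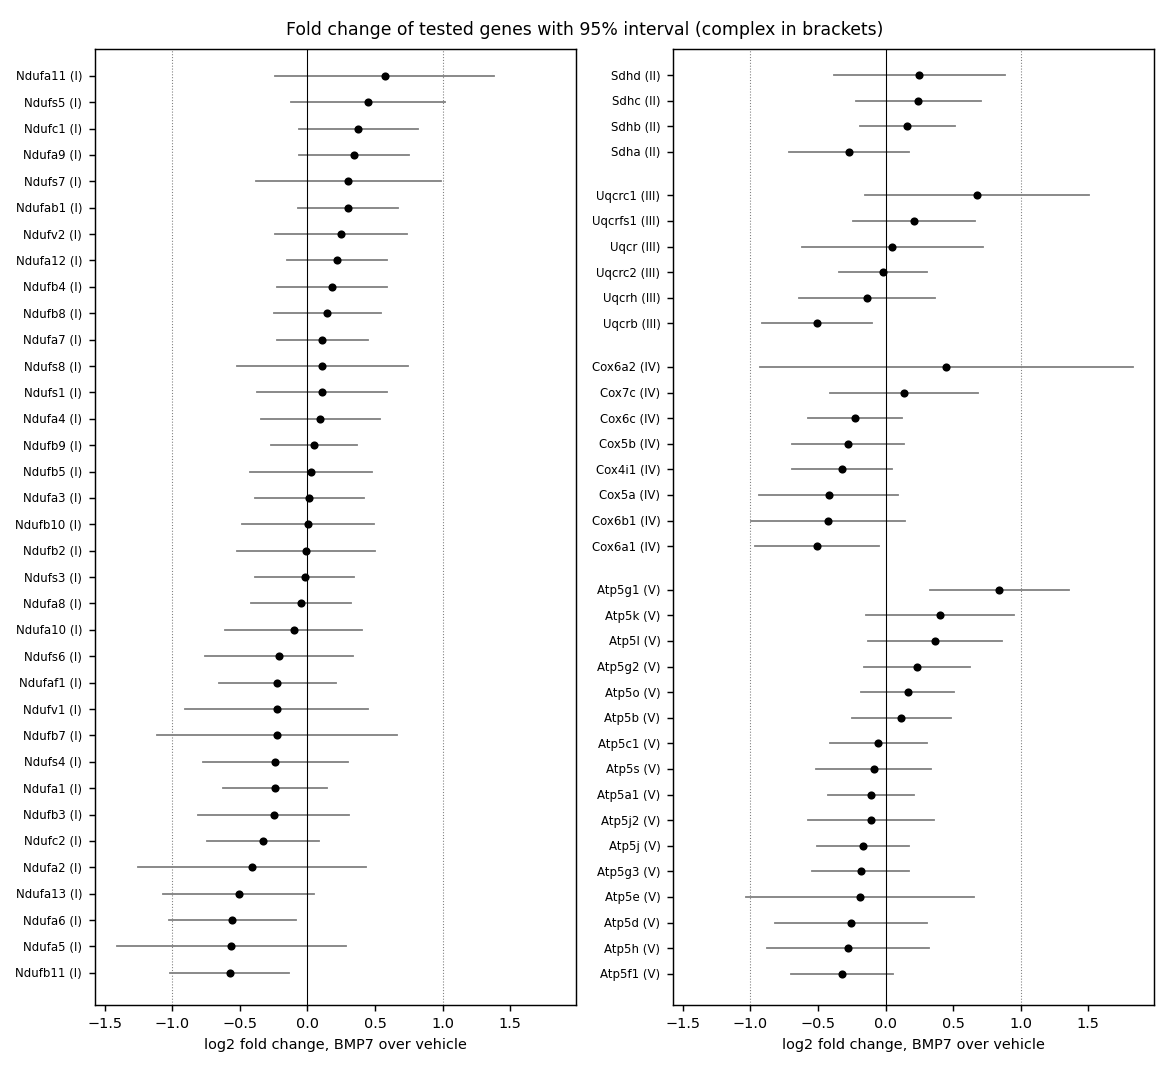
Log2 difference, BMP7 minus vehicle, of 69 of the 70 tested respiratory chain genes (points, with 95% confidence intervals as bars), grouped by complex, with dotted lines at a 2-fold difference. The points run from -0.58 (Ndufb11) to 0.84 (Atp5g1), and 0 of the 70 passed the adjusted threshold.

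Complex II had the highest median difference and complex IV the lowest, and both moved toward 0 when vehicle array 3 was left out. The median log2 difference was -0.0033 for complex I, 0.20 for complex II, 0.02 for complex III, -0.30 for complex IV and -0.10 for complex V. Without vehicle array 3 these medians were 0.06, 0.03, 0.05, -0.13 and 0.03 in the same order, and that of all members was 0.04, beside 0.02 for all tested probe sets. Without vehicle array 2 they were -0.05, 0.20, -0.09, -0.33 and -0.12. That of all members was then -0.12, beside 0.03 for all tested probe sets. Vehicle array 3 was the highest of the 8 arrays for 36 of the 70 members, or 51.4%, against 24.0% of all tested probe sets. It was the lowest for 14, or 20.0%, against 30.9%. Vehicle array 2 was the lowest of the 8 for 21 of the 70 members, or 30.0%, against 17.2% of all tested probe sets. All 8 tested members of complex IV were highest on vehicle array 3, and no member of complex II was. Relative to each gene's mean over the arrays, the median member of complex IV stood at 0.77 on the log2 scale on vehicle array 3 and between -0.25 and -0.05 on the BMP7 arrays, whereas the median member of complex II stood at -0.43 on vehicle array 3. The part of RNA integrity in these values was not tested.

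**Figure D2:**
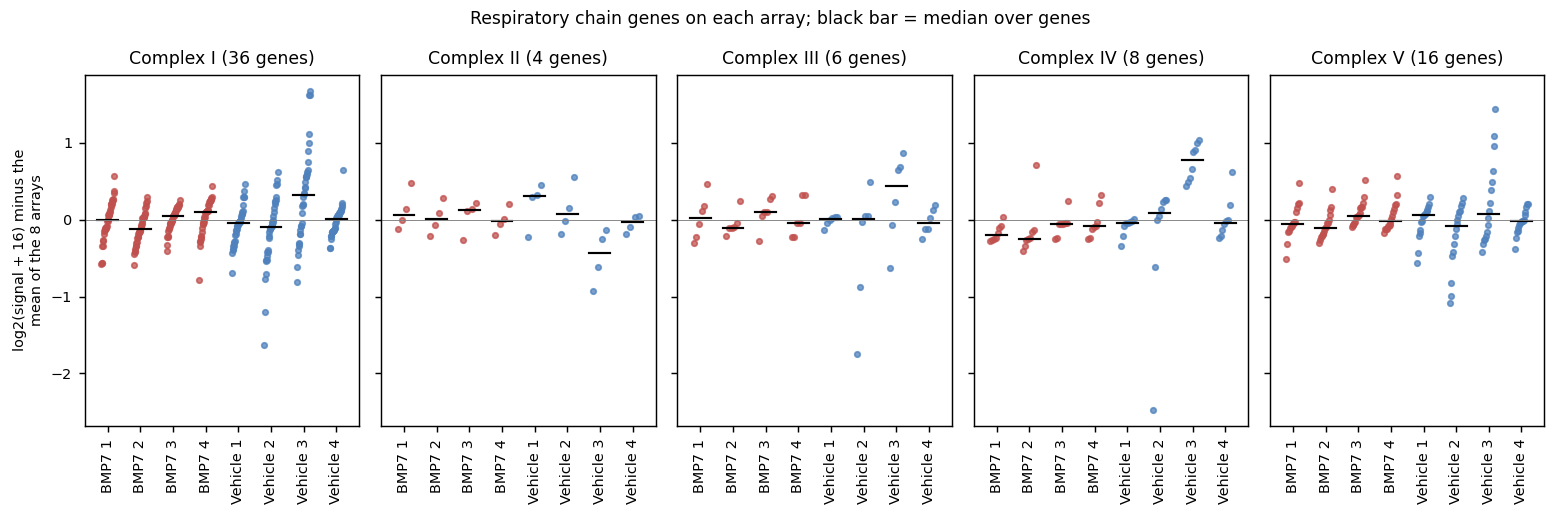
Deviation of each tested gene (points) from its own mean over the 8 arrays, in log2(signal + 16), by complex, with BMP7 arrays left of vehicle arrays and the median over genes as a bar. The median on vehicle array 3 stands at 0.77 for complex IV and at -0.43 for complex II.

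The BMP7 arrays resembled each other more than the vehicle arrays did. The median SD of the members' log2 signals was 0.14 over the 4 BMP7 arrays and 0.37 over the 4 vehicle arrays, or 0.23 over 3 vehicle arrays without array 3. Over all tested probe sets, not matched in signal, these SDs were 0.22, 0.41 and 0.29. The vehicle SD was the larger of the pair for 62 of 70 members, or 88.6%, against 78.5% of all tested probe sets.

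Promoter sequence gives a view of these genes that the expression values did not use. NRF1, the GABP factors of the ETS family and YY1 are known regulators of nuclear genes for mitochondrial proteins, and their core letters were searched on both strands in the window from 250 bases before to 50 after the start of each gene (RefSeq, GRCm38.p6). A window was found for 59 of the 72 members. The NRF1 palindrome GCGCATGCGC was in 5 of the 59 (8.47%), against 1.07% of 27025 genes. The ETS core CCGGAAG was in 15 (25.4%), against 9.93%, and the YY1 core AAGATGG was in 11 (18.6%), against 7.28%. In all, 28 of the 59 held at least 1 of the 3. The 27025 genes are all those with a window, on the array or not. They were not matched to the members in signal or base composition. These matches are descriptions of the letters and not binding sites.

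The 5 windows with the NRF1 palindrome are shown, since they span complexes I, III, IV and V, and beside them that of Atp5g1, the member with the largest difference, which held none of the 3 motifs. They lie at chr17:56717512-56717811 (plus strand, Ndufa11), chr9:108936398-108936697 (plus strand, Uqcrc1), chr5:115348909-115349208 (minus strand, Cox6a1), chr5:108434350-108434649 (minus strand, Atp5k), chr15:102670998-102671297 (minus strand, Atp5g2) and chr11:96075582-96075881 (minus strand, Atp5g1). Each is written 5' to 3' along the gene, with motif letters in capitals. GCGCATGCGC is the NRF1 palindrome, and CTTCCGG, in Cox6a1 and Atp5k, is the ETS core on the other strand. No matches overlapped.
Ndufa11: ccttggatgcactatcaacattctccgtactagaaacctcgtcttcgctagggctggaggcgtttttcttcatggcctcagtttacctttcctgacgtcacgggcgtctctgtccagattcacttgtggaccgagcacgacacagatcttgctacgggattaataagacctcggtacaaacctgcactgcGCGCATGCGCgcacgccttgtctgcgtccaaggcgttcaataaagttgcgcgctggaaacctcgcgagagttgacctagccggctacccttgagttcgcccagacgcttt
Uqcrc1: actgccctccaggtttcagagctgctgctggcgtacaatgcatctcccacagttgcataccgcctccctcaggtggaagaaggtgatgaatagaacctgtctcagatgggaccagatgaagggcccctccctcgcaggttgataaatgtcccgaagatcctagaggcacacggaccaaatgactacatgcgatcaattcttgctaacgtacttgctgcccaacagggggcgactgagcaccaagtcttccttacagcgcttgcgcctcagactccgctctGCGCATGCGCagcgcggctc
Cox6a1: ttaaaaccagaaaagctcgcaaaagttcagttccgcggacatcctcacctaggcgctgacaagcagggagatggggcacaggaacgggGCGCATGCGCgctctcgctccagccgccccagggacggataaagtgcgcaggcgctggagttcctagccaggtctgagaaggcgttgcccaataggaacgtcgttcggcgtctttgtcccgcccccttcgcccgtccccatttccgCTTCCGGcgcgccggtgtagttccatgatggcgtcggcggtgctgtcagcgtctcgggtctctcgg
Atp5k: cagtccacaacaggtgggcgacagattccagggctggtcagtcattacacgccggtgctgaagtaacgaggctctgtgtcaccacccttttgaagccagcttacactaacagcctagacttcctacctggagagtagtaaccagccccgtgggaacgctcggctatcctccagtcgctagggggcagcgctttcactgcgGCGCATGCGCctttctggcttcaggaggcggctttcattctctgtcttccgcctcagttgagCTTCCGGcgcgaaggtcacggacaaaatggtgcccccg
Atp5g2: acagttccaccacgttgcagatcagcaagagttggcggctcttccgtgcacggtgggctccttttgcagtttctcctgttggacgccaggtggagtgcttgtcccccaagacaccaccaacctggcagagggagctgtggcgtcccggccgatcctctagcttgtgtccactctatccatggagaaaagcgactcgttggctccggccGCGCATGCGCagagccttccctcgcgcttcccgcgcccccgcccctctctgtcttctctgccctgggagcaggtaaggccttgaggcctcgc
Atp5g1: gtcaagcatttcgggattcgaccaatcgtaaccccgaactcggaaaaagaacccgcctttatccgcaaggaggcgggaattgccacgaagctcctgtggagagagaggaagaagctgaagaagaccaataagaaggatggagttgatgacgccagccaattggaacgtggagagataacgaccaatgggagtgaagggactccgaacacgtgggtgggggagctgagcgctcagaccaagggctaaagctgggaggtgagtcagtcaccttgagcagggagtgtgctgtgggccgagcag
The palindrome began 60 bases before the start in Ndufa11, 162 in Cox6a1, 50 in Atp5k and 42 in Atp5g2, and after the start in Uqcrc1. The median log2 difference of the members with the palindrome was 0.40, that of those with the ETS core was -0.14 and that of those with the YY1 core was 0.01. These medians rested on single arrays: without vehicle array 2 they were 0.12, -0.14 and -0.05, and without vehicle array 3 they were 0.54, 0.07 and 0.13, in the same order. The 0.40 was the value of Atp5k itself, for which other probe sets gave -0.37 and 0.26. None of the genes with a motif passed the test.

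In complex I, 18 members were higher and 18 lower in BMP7 cells, and 0 of 36 passed the test. At an unadjusted p under 0.05, 3 of the 36 were lower and 0 higher, against 9.35% downward and 12.5% upward of all tested probe sets. Subunits that take electrons from NADH and pass them on are given first. Ndufv1, the flavin-binding subunit that takes electrons from NADH, had signals of 2923, 3315, 3596 and 3978 on BMP7 arrays, against 3247, 2569.5, 8102 and 3869 on vehicle arrays. The groups overlapped, and vehicle array 3 was more than 2-fold above every other array. Its log2 difference was -0.23 ± 0.31 (SE, n = 4 each, adjusted p = 0.694), or 0.11 without that array. Ndufs1, the largest iron-sulfur subunit, had 3449.6, 2615, 2991 and 3418 on BMP7 arrays, against 3220.3, 3431, 1936 and 3201 on vehicle arrays. Here vehicle array 3 was the lowest of all and the rest were interleaved, with a log2 difference of 0.11 ± 0.22 (adjusted p = 0.807), or -0.08 without that array.

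Among the accessory subunits of complex I the differences ran both ways. Ndufb11, a membrane-arm subunit, had 10453, 8656, 8516 and 9532 on BMP7 arrays, against 13868, 13564, 19094 and 10128 on vehicle arrays. BMP7 array 1 lay above vehicle array 4 and the groups otherwise stood apart. The log2 difference was -0.58 ± 0.20 (adjusted p = 0.131), and it passed when vehicle array 4 was left out (-0.73, adjusted p = 0.0438, where 7.98% of all probe sets passed). Ndufa11, another membrane-arm subunit, with the largest positive difference of the complex, had 5526, 5467, 5648 and 6418 on BMP7 arrays, against 4620.5, 1508, 6294 and 5070.3 on vehicle arrays. Vehicle array 2 was far below the other 7 and the groups overlapped, with a log2 difference of 0.57 ± 0.37 (adjusted p = 0.385), or 0.12 without vehicle array 2.

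Ndufa5, a subunit of the matrix arm, had 3458, 2469, 3169.8 and 3212 on BMP7 arrays, against 3266, 3717, 11971 and 2865 on vehicle arrays. Apart from the high vehicle array 3 the groups covered the same range, and the log2 difference of -0.56 ± 0.39 (adjusted p = 0.414) was -0.10 without it. Ndufs4, which is needed for a stable NADH-oxidising module and is mutated in Leigh syndrome, had 4548, 4401, 3818 and 2298 on BMP7 arrays, against 5112, 4409, 4536 and 3332 on vehicle arrays. The groups overlapped, with the lowest value on BMP7 array 4, and the log2 difference was -0.24 ± 0.24 (adjusted p = 0.588). Ndufb8, a membrane-arm subunit widely used as an indicator of assembled complex I, had 9574, 8138, 9028 and 9207 on BMP7 arrays, against 9137, 6161, 9692 and 7906 on vehicle arrays. These overlapped with no array far out, at a log2 difference of 0.15 ± 0.18 (adjusted p = 0.662), or 0.23 without vehicle array 3 and 0.01 without vehicle array 2.

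Ndufs5, a small accessory subunit measured with the uncertainty given above, had 6390.1, 4528, 4689 and 4640.0 on BMP7 arrays, against 5937, 2516, 3103 and 3916 on vehicle arrays. Vehicle array 1 alone reached into the BMP7 range, and the log2 difference was 0.45 ± 0.26 (adjusted p = 0.333), or 0.27 without vehicle array 2. Ndufa4, whose protein associates with complex IV, had 13161, 11998, 9205 and 8347 on BMP7 arrays, against 12435, 8625, 9859 and 8794 on vehicle arrays. The groups were interleaved, with a log2 difference of 0.10 ± 0.20 (adjusted p = 0.812). The remaining members of complex I had log2 differences between -0.55 (Ndufa6, adjusted p = 0.164) and 0.38 (Ndufc1, adjusted p = 0.299).

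Complex II, succinate dehydrogenase, links the respiratory chain to the citric acid cycle, and none of its 4 subunits passed. For all 4 the confidence interval lay within 2-fold. Sdha, the flavoprotein that oxidises succinate, had 6861, 6539, 5720.2 and 5997 on BMP7 arrays, against 8583, 10110.2, 5802 and 6452 on vehicle arrays. The groups overlapped, with vehicle arrays 1 and 2 above the rest, and the log2 difference was -0.27 ± 0.20 (adjusted p = 0.456), or -0.13 without vehicle array 2. Sdhb, the iron-sulfur subunit, had 6491, 7537, 7813 and 8156 on BMP7 arrays, against 6054, 7003, 6419.9 and 7335 on vehicle arrays. BMP7 array 1 fell within the vehicle range and the other 3 lay above it, at a log2 difference of 0.16 ± 0.16 (adjusted p = 0.577).

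The membrane anchors of complex II were lowest on vehicle array 3. Sdhc had 5682, 6266, 5594 and 4984 on BMP7 arrays, against 6338, 4522, 3352 and 5299 on vehicle arrays, and Sdhd had 4106, 2519.6, 3416 and 2958 on BMP7 arrays, against 4029.7, 3269, 1537 and 2575 on vehicle arrays. Both pairs of groups overlapped. The log2 difference was 0.24 ± 0.21 for Sdhc (adjusted p = 0.525) and 0.25 ± 0.29 for Sdhd (adjusted p = 0.638), or 0.07 and -0.02 without vehicle array 3.

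Complex III, the cytochrome bc1 complex, held members with non-overlapping groups in both directions, and 0 of its 6 passed. Uqcrb, the ubiquinone-binding protein, had 25188, 26904, 25561 and 26586 on BMP7 arrays, against 31108, 43760.4, 48483 and 28564 on vehicle arrays. Every vehicle array was above every BMP7 array, and the BMP7 arrays were close together. The log2 difference was -0.51 ± 0.19 (adjusted p = 0.147). Uqcrc1, a core protein, had 6394, 5492, 5742 and 5802 on BMP7 arrays, against 4501, 1369, 5434 and 5275 on vehicle arrays. Every BMP7 array was above every vehicle array, by a narrow margin for vehicle arrays 3 and 4 and a wide one for vehicle array 2. The log2 difference was 0.68 ± 0.38 (adjusted p = 0.317), or 0.21 without vehicle array 2.

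The other members of complex III overlapped between the groups. Uqcrc2, the second core protein, had 6318, 6351, 7007 and 6381 on BMP7 arrays, against 6708, 6787, 6243 and 6680.5 on vehicle arrays. These 8 values lay in a narrow range, with a log2 difference of -0.02 ± 0.15 (adjusted p = 0.952). Uqcrfs1, the Rieske iron-sulfur protein, had 6954, 5964, 6886 and 8082 on BMP7 arrays, against 6598, 6694, 4148 and 7068 on vehicle arrays, where array 3 was the lowest. Its log2 difference was 0.21 ± 0.21 (adjusted p = 0.575), or 0.03 without that array. Uqcrh, the hinge protein that binds cytochrome c1, had 5909, 6401, 8358 and 5928 on BMP7 arrays, against 6309, 6763, 11094 and 5806 on vehicle arrays. The groups overlapped, with array 3 the highest of each, at a log2 difference of -0.14 ± 0.23 (adjusted p = 0.756), or 0.07 without vehicle array 3.

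Complex IV, cytochrome c oxidase, had the lowest median of the complexes, with 6 of its 8 tested members lower in BMP7 cells, and 0 of 8 passed. Cox4i1, the regulatory subunit that binds ATP, had 18012, 18489, 21253 and 20679.6 on BMP7 arrays, against 21588, 24118, 31988 and 21608 on vehicle arrays. The groups did not overlap, though BMP7 array 3 came within a few percent of the lowest vehicle arrays. The log2 difference was -0.32 ± 0.17 (adjusted p = 0.288), or -0.20 without vehicle array 3. Cox6a1, the ubiquitous form of subunit VIa, had 20912, 21036, 21135 and 21070.0 on BMP7 arrays, against 25327, 29977, 46320.3 and 22905 on vehicle arrays. The BMP7 arrays were nearly equal and all lay below the vehicle arrays, at a log2 difference of -0.51 ± 0.21 (adjusted p = 0.187), or -0.30 without vehicle array 3.

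Vehicle array 3 was also the highest for the other tested subunits of complex IV. Cox6c had 20873, 18684, 21877 and 22065 on BMP7 arrays, against 22115, 23216, 30476 and 22449 on vehicle arrays. The groups were separated by a very small gap, and the log2 difference was -0.22 ± 0.16 (adjusted p = 0.426), or -0.12 without vehicle array 3. Cox5a, one of the subunits around the catalytic core, had 15368, 12278, 13862 and 14929.6 on BMP7 arrays, against 15379, 19083, 30680.4 and 13999.5 on vehicle arrays. Cox5b, a zinc-binding subunit, had 13867, 14727, 15835 and 15452 on BMP7 arrays, against 15913, 16425, 26078 and 15787 on vehicle arrays. In both genes the groups overlapped at vehicle array 4, and the log2 difference was -0.42 ± 0.23 for Cox5a (adjusted p = 0.316) and -0.28 ± 0.19 for Cox5b (adjusted p = 0.411). Without vehicle array 3 it was -0.19 for Cox5a and -0.10 for Cox5b.

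Cox6b1, the subunit that links the monomers of the enzyme, had 14848, 13793, 16812 and 14855 on BMP7 arrays, against 15108, 20812, 35913 and 14857 on vehicle arrays. The groups overlapped, and the log2 difference of -0.43 ± 0.26 (adjusted p = 0.354) was -0.15 without vehicle array 3. Cox7c, a small membrane subunit, had 11248, 11545, 15100.0 and 15936 on BMP7 arrays, against 10033, 8256, 17858 and 14558 on vehicle arrays. These overlapped widely, at a log2 difference of 0.13 ± 0.25 (adjusted p = 0.784), or 0.32 without vehicle array 3 and -0.05 without vehicle array 2.

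The tissue-specific isoforms of complex IV were weakly measured. Cox6a2, the heart and skeletal muscle form of subunit VIa, had 391, 636, 366 and 448 on BMP7 arrays, against 369.9, 55.5, 782 and 598 on vehicle arrays. Its vehicle arrays spanned the whole range, and the log2 difference of 0.45 ± 0.63 (adjusted p = 0.704) turned to -0.30 without vehicle array 2. Cox4i2, the form of subunit IV known from lung, had 306, 386, 327 and 305 on BMP7 arrays, against 326, 372, 216 and 377 on vehicle arrays, and was not tested. Cox6b2, a testis form, lay between 15.4 and 106 on BMP7 arrays and between 23.2 and 169 on vehicle arrays, and was not tested either.

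**Figure D3:**
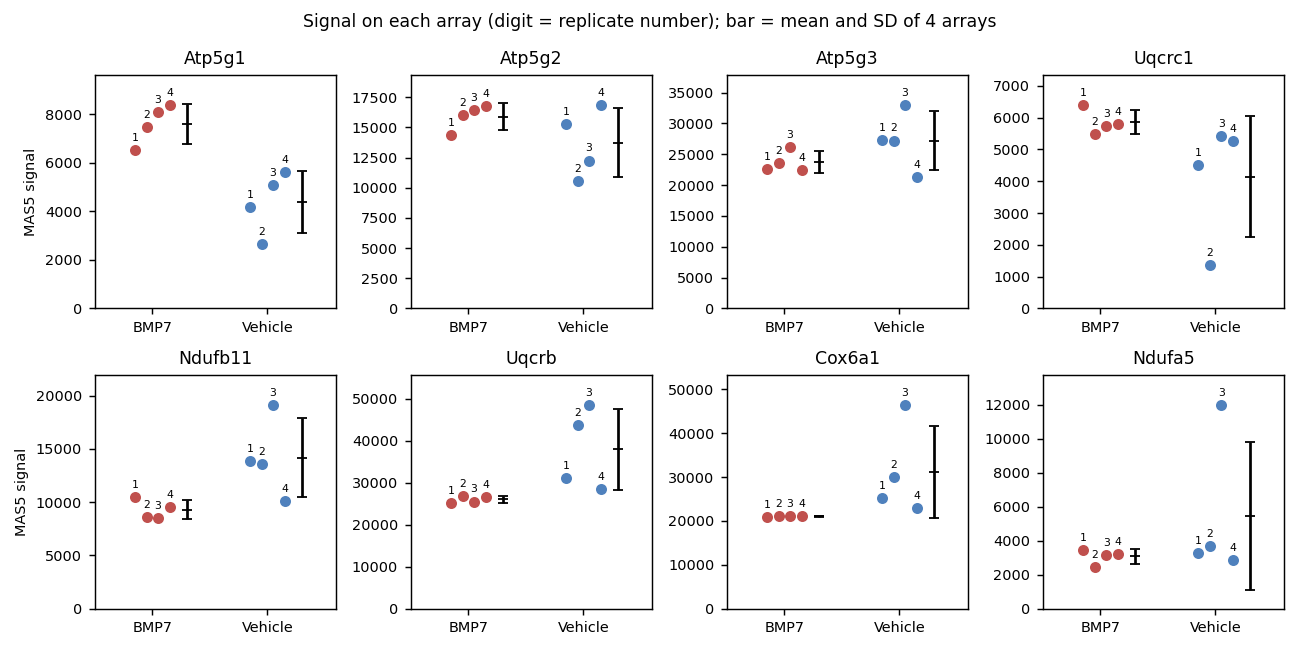
MAS5 signal (linear axis from 0) of 8 respiratory chain genes on each array (points, numbered by replicate), with BMP7 left of vehicle and the mean and SD of each group as a bar. The vehicle signals of Atp5g1 run from 2659 to 5620.4 and lie below its BMP7 signals, which run from 6519 to 8379.

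Complex V held the member with the largest difference, Atp5g1, and 0 of its 16 members passed. Atp5g1 (chromosome 11) encodes 1 of the 3 forms of the c subunit, which makes up the rotating ring through which protons return. The gene had only 1 single-gene probe set, so its difference could not be compared on another. It had 6519, 7462, 8093 and 8379 on BMP7 arrays, against 4191, 2659, 5071 and 5620.4 on vehicle arrays. The groups did not overlap. The mean signal was 7614 ± 824 in BMP7 cells and 4385 ± 1293 in vehicle cells (SD, n = 4 each), and the log2 difference was 0.84 ± 0.23 (SE, 95% confidence interval 0.33 to 1.36), or 1.79-fold. The adjusted p was 0.0775, and over the alternatives it ran between 0.00761 and 0.427. Leaving out vehicle array 3 gave a log2 difference of 0.93 (adjusted p = 0.0424, where 5.21% of all probe sets passed), and leaving out vehicle array 4 gave 0.98 (adjusted p = 0.0357). Without vehicle array 2, the lowest for this gene, it was 0.62 (adjusted p = 0.107). With arrays weighted by their quality Atp5g1 and Ndufb11 passed as well, where 13.1% of all probe sets did.

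The other forms of the c subunit, which yield the same mature protein and were singled out after their values were seen, did not show such a gap. Atp5g2 had 14356, 16038, 16428 and 16814 on BMP7 arrays, against 15277, 10585, 12263 and 16860.1 on vehicle arrays. Atp5g3 had 22564, 23619, 26248 and 22491 on BMP7 arrays, against 27296, 27229, 32982 and 21382 on vehicle arrays. Both overlapped, with log2 differences of 0.23 ± 0.18 for Atp5g2 (adjusted p = 0.467) and -0.18 ± 0.16 for Atp5g3 (adjusted p = 0.530). Whether Atp5g1 differs from its paralogs in response was not tested.

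On the chosen probe sets, these subunits of the catalytic head of ATP synthase and its central stalk had log2 differences near 0. Their standard errors were 0.15 to 0.17, beside a median of 0.25 over all tested probe sets, not matched in signal. Atp5a1, the alpha subunit, had 14384, 12948, 15196 and 14344 on BMP7 arrays, against 16579, 14127, 16001 and 14534 on vehicle arrays. Atp5b, the beta subunit that carries the catalytic sites, had 21539, 22139, 25514 and 26363 on BMP7 arrays, against 24164, 23633, 17042 and 23868 on vehicle arrays. Atp5c1, the gamma subunit of the central stalk, had 12969.5, 12128, 13711 and 13879 on BMP7 arrays, against 14573, 16246, 11128 and 13179.8 on vehicle arrays. The groups of all 3 overlapped, with vehicle array 3 lowest for Atp5b and Atp5c1. Their log2 differences were -0.11 ± 0.15 (Atp5a1, adjusted p = 0.699), 0.12 ± 0.17 (Atp5b, adjusted p = 0.713) and -0.05 ± 0.16 (Atp5c1, adjusted p = 0.876). Without vehicle array 3 that of Atp5b was -0.0054 and that of Atp5c1 was -0.15. Further probe sets of Atp5a1 gave -0.90 and -0.41, and another of Atp5c1 gave -0.68, with adjusted p of 0.159, 0.331 and 0.204 in that order.

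Subunits of the outer stalk and the membrane part of complex V gave values of both signs. Atp5o, the subunit that joins the outer stalk to the head, had 11986, 14848, 14806 and 14572 on BMP7 arrays, against 11744, 14245, 11431 and 12809.8 on vehicle arrays. BMP7 array 1 was low within its group, the groups overlapped, and the log2 difference was 0.16 ± 0.16 (adjusted p = 0.563). Atp5f1, subunit b of the outer stalk, had 12848, 11228, 12962 and 12717 on BMP7 arrays, against 14792, 16220.0, 19455 and 12436 on vehicle arrays. Vehicle array 4 fell among the BMP7 arrays and the other 3 lay above them, at a log2 difference of -0.32 ± 0.17 (adjusted p = 0.298), or -0.21 without vehicle array 3.

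Atp5h, subunit d of the outer stalk, had 16184, 17683, 20586 and 19090.5 on BMP7 arrays, against 17354, 17454, 43029.5 and 18657 on vehicle arrays. Vehicle array 3 was more than 2-fold above the other 7, and the log2 difference of -0.28 ± 0.27 (adjusted p = 0.573) was 0.04 without it. Atp5k, subunit e, which takes part in pairing the enzyme into dimers, had 14886, 12415, 15699 and 15895 on BMP7 arrays, against 11624, 6399.6, 14794 and 13726 on vehicle arrays. The groups overlapped with vehicle array 2 far below the rest, at a log2 difference of 0.40 ± 0.25 (adjusted p = 0.367), or 0.14 without that array. Across the remaining members of complex V, the log2 differences lay between -0.25 (Atp5d, adjusted p = 0.582) and 0.37 (Atp5l, adjusted p = 0.365).

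Further probe sets of the same genes gave no call either. There were 63 of them, of which 55 on 37 genes were tested, and 0 passed, with 3 higher and 4 lower at an unadjusted p under 0.05, against 12.5% and 9.35% of all tested probe sets. For 34 of the 55 the sign was that of the chosen probe set. Genes with probe sets of opposite sign included Ndufc2 (-0.33 on the chosen one and 0.57 on another) and Cox5b (-0.28 and 0.47). Ndufb5 (0.03 and -0.61) and Ndufa5 (-0.56 and 0.06) were also among them. For Ndufb11, with -0.58 on the chosen one, others gave 0.04 and -0.46, and for Atp5k, with 0.40, others gave -0.37 and 0.26. Other probe sets gave smaller differences of the same sign for Uqcrb (-0.51 and -0.16), Cox6a1 (-0.51 and -0.04) and Cox6b1 (-0.43 and -0.04). For Sdha the second probe set gave -0.71 (adjusted p = 0.0893), beside -0.27 on the chosen one. The authors' deposited table gives a p-value under 0.05, without adjustment, for 3 members, against 15.7% of the tested probe sets. In the authors' deposited table they include Atp5g1, with a ratio of BMP7 to vehicle of 1.74, and Ndufab1, with 1.23.

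Other genes of mitochondrial energy metabolism, in lists drawn up beside the members, likewise gave no call. The lists held 13 tested genes of the citric acid cycle (median log2 difference 0.08), 13 regulators of mitochondrial gene expression (-0.24), 11 carriers and pores (0.02), 8 assembly factors of complexes II to V (-0.23), 3 genes of complex I assembly and coenzyme Q (-0.23), 6 further subunits of complexes III and IV with cytochrome c (0.11) and 72 mitochondrial ribosomal proteins (0.15). Of the 72 ribosomal proteins, 52 were higher in BMP7 cells and 20 lower, against 7264 and 6312 of the 13576 tested probe sets. At an unadjusted p under 0.05, 7 were higher and 2 lower, a share below the 12.5% upward and 9.35% downward of all tested probe sets. Cycs, cytochrome c itself, had 16709, 14224, 15686 and 16727 on BMP7 arrays, against 11046, 13427, 11566 and 12005 on vehicle arrays. The groups did not overlap, and the log2 difference was 0.40 (adjusted p = 0.152).

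Cyc1, the cytochrome c1 of complex III, had a log2 difference of 0.21 (adjusted p = 0.576) and Cox8a, a small subunit of complex IV, one of 0.56 (adjusted p = 0.271). Tfam, which packages mitochondrial DNA and takes part in its transcription, was at 0.10 (adjusted p = 0.800), and Ppargc1a, the coactivator of mitochondrial biogenesis, at -0.39 (adjusted p = 0.548). Cox7a1, the heart and muscle form of subunit VIIa, was below the filter, with a mean signal of 118 ± 50.6 in BMP7 cells and 121 ± 46.7 in vehicle cells (SD, n = 4 each). Atpif1, the inhibitor that stops ATP synthase from running backwards and was singled out after its values were seen, was at -0.82 (adjusted p = 0.0796).

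**Figure D4:**
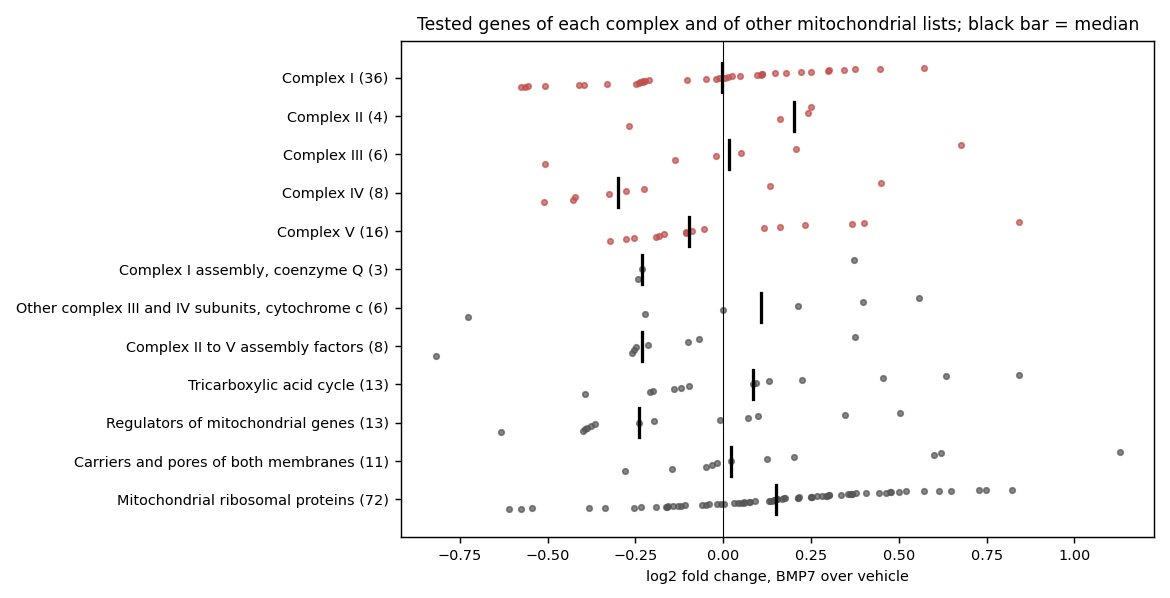
Log2 difference, BMP7 minus vehicle, of each tested gene (points) in the complexes and in the other mitochondrial lists, with the median of each list as a bar. List medians run from -0.30 (complex IV) to 0.20 (complex II), and no gene of the lists passed the adjusted threshold.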

How the data were processed

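Total RNA of 4 BMP7 and 4 vehicle samples was hybridised to 1 array each, per the labels. The authors deposited an intensity per probe set and array, on a linear scale. MAS5 is the tool named in the submitters' processing notes, with its version not given in the sources used here. Trimmed mean signals lay between 1499.8 and 1499.9 on the 8 arrays, so a common scaling had been applied. The authors also deposited a BMP7 to vehicle ratio of mean signals and a p-value per probe set, per the file headers. Signals were taken from the columns named by sample, and their group means equal the deposited means; 8 per-sample columns of another table, named only by array codes, were not used.

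Signals were transformed to log2(signal + 16), so fold changes of low signals are understated. Of 22626 non-control probe sets, those with a mean under the 40th percentile (a signal of about 325) were left out. The remaining 13576 were tested in limma 3.58.1 (R 4.3.3; lmFit, and eBayes with a trend), group as the only term, with Benjamini-Hochberg adjustment over all of them and a threshold of 0.05; the script was tested on simulated data. Intervals are 95% confidence intervals of the log2 difference. The number of arrays limits the precision. Described gene by gene were a list of catalytic, core and isoform subunits and, per complex, the 2 members with the largest positive and the 2 with the largest negative difference; other genes named beside a count were chosen after their values were seen. Other settings covered pseudocount, filter, scaling, trend, array weights, left-out arrays, RNA quality terms, probe set choice and a replicate block. The members and lists were chosen with earlier results of these data known. A probe set listing several genes (481 in all) named none, and RefSeq (GRCm38.p6) named all 72 members, 4 of them under another symbol. The values of 1 member, which is kept in all counts, are not reported here.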

Additional observations from a re-analysis of the deposited data

Results flagged for a closer look

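Within a group of 4 arrays, 22 of 144 checks on the members found 1 array set far apart from the other 3 (Dixon's criterion), where chance alone flags about 1 in 20 groups. Over all tested probe sets the share was 6% for BMP7 groups and 7.49% for vehicle groups. Of the 22, 7 were BMP7 arrays, 14 were vehicle array 3 and 1 was vehicle array 4.

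Among the BMP7 groups, BMP7 array 1 was lowest for Atp5o (11986) and Ndufs8 (5919) and highest for Ndufs5 (6390.1) and Atp5l (10229.7). BMP7 array 2 was lowest for Atp5f1 (11228) and Ndufc2 (7381), and BMP7 array 3 was highest for Uqcrc2 (7007).

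Vehicle array 3 was the highest of its group for members of 3 complexes. In complex I these were Ndufb7 (23012), Ndufa5 (11971), Ndufa2 (27628), Ndufa1 (18602), Ndufb10 (7700.5) and Ndufs6 (10472). In complex IV they were Cox6c (30476) and Cox5b (26078), and in complex V Atp5e (9934) and Atp5h (43029.5). The same array was the lowest of its group for Atp5b (17042), Ndufs1 (1936), Ndufv2 (5129.6) and Uqcrfs1 (4148). Vehicle array 4 was highest for Ndufa7 (15370.1).

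The 3'/5' ratio of Actb on vehicle array 3, 6.55, stood apart in the same way. Its part in the values above was not tested.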

How the results depend on the processing

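Calls among the members rested on single arrays and weights. The upward count, 0 in the fit described, was 1 (Atp5g1) with array weights, without vehicle array 3 and without vehicle array 4, so it ran from 0 to 1 when arrays were left out in turn. The downward count, also 0, was 1 (Ndufb11) with array weights and without vehicle array 4, again 0 to 1. With weights 13.1% of all probe sets passed. The count of members with groups that do not overlap, 7, was 3 after quantile normalization and 8 to 17 with 1 array left out, which makes separation easier. The cause of the other shifts was not tested. The member median of the log2 difference, -0.03, ran from -0.12 to 0.04 with arrays left out in turn, and was 0.02 after quantile normalization, 0.05 with the Actb ratio and 0.09 with the hybridisation controls as a covariate, within the spread of the arrays' medians. The median of each complex changed sign under at least 2 alternatives. That of complex IV, -0.30, was 0.16 with the hybridisation controls and 0.13 on probe sets without a suffix _x, _s or _a. The setting without suffixes dropped members and kept 36 of the 70. In complex IV it kept only Cox6a2, Cox6c and Cox7c, so that 0.13 was the value of Cox7c. That of complex II, 0.20, was -0.045 with array weights, -0.0035 with the Actb ratio and -0.19 with the hybridisation controls. That of complex V, -0.10, lay between 0.01 and 0.12 in 5 alternatives, among them quantile normalization and leaving out vehicle array 3. Without Ndufaf1 and Atp5s the member median was -0.02. Of the 70 tested members, 47 changed sign in at least 1 of 20 alternatives, and 23 did not (14 positive, 9 negative). With the replicate number as a replicate block, 0 members passed either way and the median stayed at -0.03. Same-numbered arrays correlated at 0.04 to 0.38 in their deviations, below 0.1 for 1 pair, and 7 of 8 arrays correlated best with their own number. The fit described did not take the numbers as pairs, and whether they mark pairs was not tested. The block moved the calls over all probe sets to 652, beside 425. Signal over background limits Cox4i2, Cox6b2 and Cox6a2.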

Other observations

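Among the mitochondrial genes outside the complexes, 3 with an unadjusted p under 0.05 were singled out after their values were seen, and none passed the adjusted threshold. Slc25a5, the adenine nucleotide carrier that exchanges ADP for ATP, had 18501, 20565, 22875 and 23089 on BMP7 arrays, against 15506, 17378, 8834 and 15909 on vehicle arrays. The groups did not overlap, and the log2 difference was 0.60 ± 0.22 (SE, n = 4 each, limma adjusted p = 0.143). Phb, a scaffold protein of the inner membrane, had 3323, 4000.2, 4775 and 5253 on BMP7 arrays, against 1802, 889, 2477 and 3581 on vehicle arrays. Vehicle array 4 reached into the BMP7 range, and the log2 difference was 1.13 ± 0.36 (adjusted p = 0.109). Tfb1m, which methylates mitochondrial ribosomal RNA, had 537, 434, 549.6 and 603 on BMP7 arrays, against 684, 856, 811 and 980.2 on vehicle arrays. All BMP7 arrays lay below all vehicle arrays, at a log2 difference of -0.63 ± 0.21 (adjusted p = 0.122).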
